A study of Mus musculus with 6 samples.

Results

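Mitosis and cytokinesis genes encode the machinery that condenses chromosomes, attaches them to the spindle, pulls the sister chromatids apart and cuts the cell between the daughters. A list of 52 such mouse genes was followed across 6 libraries measured on Affymetrix Mouse Gene 2.0 ST arrays, and 49 of the 52 were measured, out of 22180 genes in all. A gene counted as measured where a probe set, a group of probes summarised as 1 value, was annotated with its symbol alone, and each of the 49 had 1 such probe set. Members were found by symbol. The cyclin gene Ccnb1 matched no annotated probe set, the condensin subunit Ncapg shared its probe set with another gene, and Sgol1 was annotated only under its newer symbol Sgo1. These 3 genes enter no count below.

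The 6 libraries, each the only library of its group, were all labelled as DBA/2J, a mouse inbred strain, and as female. Undifferentiated iPS cells (induced pluripotent stem cells, made by reprogramming and dividing continuously) had been grown in medium with serum and LIF on feeder cells. The labels do not say whether feeder cells were removed before RNA extraction. The culture libraries DMSO_CMs, NRG1_CMs and DMSO_NRG1_CMs came from the same kind of cells at day 7 of cardiac differentiation. These had spent 5 days in suspension as embryoid bodies and were then plated on gelatin with 1% DMSO, with NRG-1 at 100 ng/ml, or with the pair of them. The solvent DMSO is used to promote differentiation, and NRG-1 (neuregulin 1, written NRG1 below) is a growth factor that binds ERBB receptors and is known to act on heart muscle cells. No differentiated culture without either agent was analysed here. Neonatal_CMs and Adult_CMs were labelled as cardiomyocytes isolated from mouse hearts of those ages, with no age in days and no number of animals stated.

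Most genes of mitosis are transcribed in waves, rising late in the cell cycle and falling again after division. In bulk RNA their level is therefore widely read as a measure of how many cells are cycling. The DREAM complex holds many of them silent in resting cells, and the MYB-MuvB complex with the transcription factor FOXM1 activates them before mitosis. Mouse cardiomyocytes still divide around birth and then leave the cell cycle, in many cells after a last round of DNA replication and nuclear division without cytokinesis. Fibroblasts and other heart cells keep the ability to divide.

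Levels are log2 values, so a difference of 1 is a 2-fold difference, and a gene is compared only with itself between libraries. The median of all probe sets lay between 5.13 and 5.26 in the 6 libraries. With 1 library per group no difference has a replicate check, so no test and no p-value is possible here. How far probe sets of the same gene disagree, as an SD over 672 genes, is the only error scale and is given below. It mixes noise with differences between transcripts of a gene, and it holds no variation between cultures or animals. The pluripotency markers (10 genes) had a median level of 9.76 in iPS cells and between 4.55 and 5.30 elsewhere. Of the 15 cardiomyocyte markers, 13 were above their iPS level in the neonatal library (median difference 0.65) and 7 in the adult library (median -0.24). At least 2-fold higher than in iPS cells were 3 in the neonatal library, Tnnt2 (3.42), Pln (2.80) and Actc1 (1.45), and Tnnt2 (1.87) in the adult library. The other defining markers were within 2-fold of iPS cells in both, such as the myosin heavy chain Myh6 (0.65 and -0.77). The fibroblast markers (12 genes) had medians of 10.45 in the neonatal and 11.37 in the adult library, against 6.68 in iPS cells and 7.82 to 8.59 in the cultures. The heart libraries are therefore called neonatal and adult below, without a cell type. Their Y-linked genes went against the label female, Eif2s3y being at 6.20 in the neonatal and 8.15 in the adult library and between 2.88 and 3.32 in the other libraries. In the adult library Xist, the RNA of the inactive X chromosome, stood at 3.39. In the neonatal library it stood at 8.78 together with the Y-linked RNAs.

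The iPS library held the highest levels of most of these genes, the neonatal library came close to it, the adult library lay below, and the day 7 cultures were lowest. Over the 49 genes the median level was 9.29 in iPS cells, 8.97 in the neonatal library, 8.20 in the adult library, 7.63 with NRG1, 7.58 with both agents and 7.36 with DMSO. This full order, iPS above neonatal above adult above all 3 cultures, was found for 31 of the 49 genes, and 4.2% of all genes had it. The highest level was in iPS cells for 40 genes (27.3% of all genes). For the other 9 it was in the neonatal library, as for 16.2% of all genes. These were Cdk1, Plk1, Foxm1, Bub3, Cenpe, Nuf2, Kif23, Prc1 and Anln. The neonatal library exceeded all 3 cultures for 47 of the 49 (35.0% of all genes), the exceptions being Pttg1 and Spc25. The adult library exceeded all 3 cultures for 40 (35.5% of all genes), and for Haspin and Pttg1 it lay below all of them. Among the cultures, DMSO alone was lowest for 43 of the 49, and 30.7% of all genes had that order. In these bulk samples, fewer dividing cells and less RNA per dividing cell cannot be told apart.

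**Figure D1:**
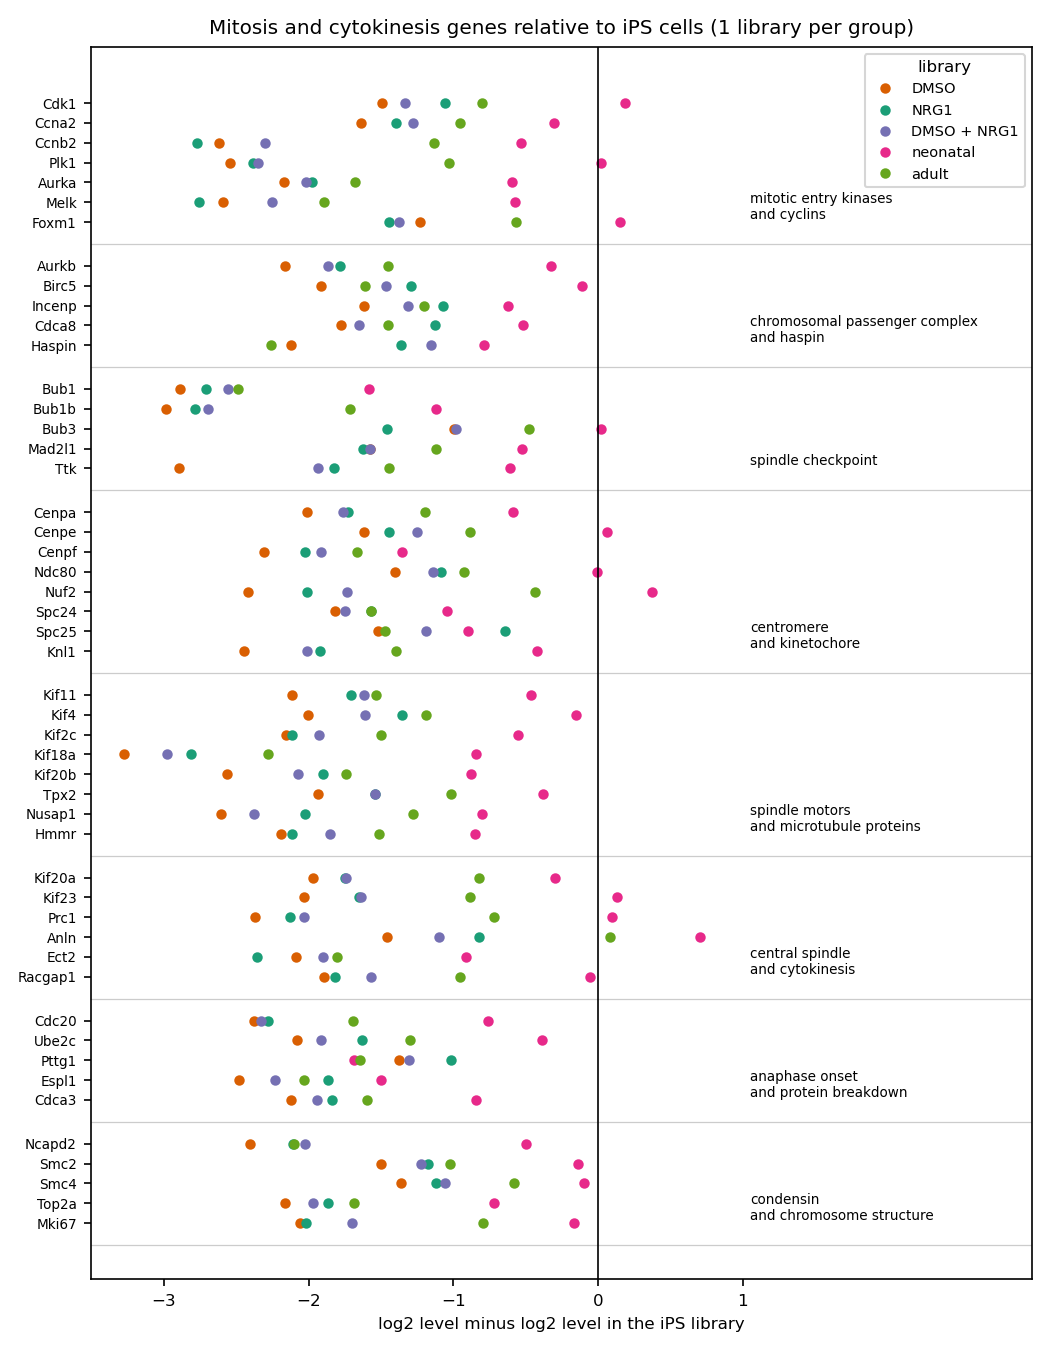
Difference of each of the 49 genes from its level in the iPS library (horizontal axis, log2 units), with 1 point per library and the genes grouped by role in division. The 3 culture points lie left of 0 for every gene, the neonatal points lie nearest to 0 for most genes, and Anln is the only gene with an adult point right of 0.

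The kinases and cyclins of mitotic entry were led by Cdk1, the kinase whose activity starts mitosis. Its level was 9.62 in iPS cells, 8.12 with DMSO, 8.56 with NRG1, 8.29 with both agents, 9.80 in the neonatal library and 8.82 in the adult library. The neonatal library was thus as high as the iPS library for Cdk1, and the DMSO culture was the lowest. Ccnb2, a B-type cyclin that activates Cdk1, stood at 10.68 in iPS cells, 8.06 with DMSO, 7.90 with NRG1, 8.37 with both agents, 10.15 in the neonatal library and 9.54 in the adult library. Plk1, the polo-like kinase needed for spindle assembly and exit from mitosis, was measured at 10.02 in iPS cells, 7.47 with DMSO, 7.63 with NRG1, 7.66 with both agents, 10.04 in the neonatal library and 8.99 in the adult library. For Plk1 the iPS and neonatal levels differed by 0.02, and the cultures lay together well below both. The spindle pole kinase Aurka had levels of 9.66 in iPS cells, 7.49 with DMSO, 7.69 with NRG1, 7.64 with both agents, 9.07 in the neonatal library and 7.98 in the adult library. Foxm1, the transcription factor that drives late cell cycle genes, ran from 6.49 with NRG1 to 8.08 in the neonatal library. The remaining members of this role, Ccna2 and Melk, had their highest level in iPS cells, at 10.47 and 9.51.

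The chromosomal passenger complex corrects faulty attachments of chromosomes and later moves to the midzone to direct cytokinesis. Its kinase Aurkb stood at 9.29 in iPS cells, 7.13 with DMSO, 7.51 with NRG1, 7.43 with both agents, 8.97 in the neonatal library and 7.84 in the adult library. Birc5 (survivin), which anchors the complex at centromeres, stood at 8.21 in iPS cells, 6.30 with DMSO, 6.92 with NRG1, 6.75 with both agents, 8.10 in the neonatal library and 6.61 in the adult library. For both genes the neonatal library was near iPS cells and the adult library closer to the cultures. Haspin, the histone kinase that recruits the complex, had levels of 7.14 in iPS cells, 5.02 with DMSO, 5.78 with NRG1, 5.99 with both agents, 6.36 in the neonatal library and 4.89 in the adult library. The adult level of Haspin was below every culture, and at 4.89 it lay under the median of all probe sets, as its level with DMSO did. The other subunits, Incenp and Cdca8, were highest in iPS cells, with neonatal levels of 7.98 and 7.94.

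The spindle checkpoint delays anaphase until every kinetochore is attached, and its genes differed among themselves in their profiles. The checkpoint kinase Bub1 stood at 10.13 in iPS cells, 7.25 with DMSO, 7.42 with NRG1, 7.58 with both agents, 8.55 in the neonatal library and 7.65 in the adult library. Its partner Bub1b (BUBR1) stood at 9.11 in iPS cells, 6.12 with DMSO, 6.32 with NRG1, 6.42 with both agents, 7.99 in the neonatal library and 7.40 in the adult library. Both were more than 2-fold lower in the neonatal library than in iPS cells, unlike most of the 49. Ttk (MPS1), the kinase that starts checkpoint signalling, had levels of 9.26 in iPS cells, 6.37 with DMSO, 7.44 with NRG1, 7.33 with both agents, 8.65 in the neonatal library and 7.81 in the adult library. Ttk thus separated DMSO alone from both cultures with NRG1. Bub3, a checkpoint adaptor that also has roles outside mitosis, had levels of 10.61 in iPS cells, 9.62 with DMSO, 9.15 with NRG1, 9.63 with both agents, 10.64 in the neonatal library and 10.14 in the adult library. Mad2l1, the inhibitor of CDC20, lay at 7.91, 7.86 and 7.91 in the cultures with DMSO, NRG1 and both.

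Kinetochores link the chromosomes to the spindle. Cenpa, the histone H3 variant that marks centromeres, was measured at 9.52 in iPS cells, 7.51 with DMSO, 7.79 with NRG1, 7.76 with both agents, 8.94 in the neonatal library and 8.32 in the adult library. Nuf2, a subunit of the NDC80 complex that binds microtubules, had levels of 9.26 in iPS cells, 6.84 with DMSO, 7.25 with NRG1, 7.52 with both agents, 9.63 in the neonatal library and 8.83 in the adult library. Nuf2 was highest in the neonatal library, and its adult level exceeded the cultures by over 2-fold. Its partner Ndc80 stood at 9.48 in iPS cells, 8.08 with DMSO, 8.40 with NRG1, 8.34 with both agents, 9.47 in the neonatal library and 8.56 in the adult library, with iPS and neonatal levels alike. The remaining subunits of that complex, Spc24 and Spc25, had neonatal levels of 8.25 and 7.67 and iPS levels of 9.29 and 8.56. Spc25 with NRG1, at 7.92, was above its neonatal level. Of the large kinetochore proteins, Cenpf was at 7.69 in the neonatal and 9.04 in the iPS library, whereas Cenpe, a motor, was at 9.15 and 9.08.

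The spindle motors and microtubule proteins build and move the spindle. Kif11 (Eg5), the motor that pushes the spindle poles apart, stood at 9.76 in iPS cells, 7.65 with DMSO, 8.05 with NRG1, 8.15 with both agents, 9.30 in the neonatal library and 8.22 in the adult library. Kif18a, which damps chromosome movements on the metaphase plate, stood at 8.56 in iPS cells, 5.29 with DMSO, 5.75 with NRG1, 5.59 with both agents, 7.72 in the neonatal library and 6.28 in the adult library. Kif18a had the widest span of the 49 between iPS cells and the DMSO culture. Tpx2, which activates AURKA on spindle microtubules, had levels of 9.88 in iPS cells, 7.94 with DMSO, 8.34 with NRG1, 8.34 with both agents, 9.50 in the neonatal library and 8.86 in the adult library. The other 5 members, Kif4, Kif2c, Kif20b, Nusap1 and Hmmr, had iPS levels between 8.48 and 9.85 and DMSO levels between 5.89 and 7.69. All 8 genes were highest in iPS cells and lowest with DMSO.

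Anaphase begins when the anaphase-promoting complex marks securin and cyclins for breakdown. Its activator Cdc20 was at 10.29 in iPS cells, 7.91 with DMSO, 8.01 with NRG1, 7.96 with both agents, 9.52 in the neonatal library and 8.60 in the adult library. Ube2c, the ubiquitin-conjugating enzyme of that complex, was at 9.93 in iPS cells, 7.85 with DMSO, 8.30 with NRG1, 8.01 with both agents, 9.55 in the neonatal library and 8.63 in the adult library. Pttg1 (securin), the inhibitor of separase, had levels of 8.06 in iPS cells, 6.69 with DMSO, 7.04 with NRG1, 6.75 with both agents, 6.38 in the neonatal library and 6.41 in the adult library. It was the only gene of the 49 with its lowest level in the neonatal library. Espl1, separase itself, had levels of 8.78 in iPS cells, 6.30 with DMSO, 6.91 with NRG1, 6.55 with both agents, 7.28 in the neonatal library and 6.74 in the adult library, and its neonatal level lay nearer to the cultures than to iPS cells. Cdca3, which helps to degrade the mitotic inhibitor WEE1, was at 8.38 in iPS cells and 7.53 in the neonatal library.

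The cytokinesis genes included several with heart library levels at or above those of iPS cells. Anln (anillin), the scaffold of the contractile ring, was at 9.70 in iPS cells, 8.24 with DMSO, 8.88 with NRG1, 8.60 with both agents, 10.41 in the neonatal library and 9.78 in the adult library. It was the only gene of the 49 higher in the adult than in the iPS library. Prc1, which bundles the microtubules of the central spindle, stood at 10.18 in iPS cells, 7.81 with DMSO, 8.06 with NRG1, 8.15 with both agents, 10.28 in the neonatal library and 9.46 in the adult library. Kif23 (MKLP1), the motor subunit of centralspindlin, stood at 9.16 in iPS cells, 7.13 with DMSO, 7.52 with NRG1, 7.52 with both agents, 9.30 in the neonatal library and 8.28 in the adult library, and its partner Racgap1 was at 9.25 in iPS cells and 9.19 in the neonatal library. Ect2, the exchange factor that switches on RHOA at the cleavage site, had levels of 11.52 in iPS cells, 9.44 with DMSO, 9.17 with NRG1, 9.62 with both agents, 10.61 in the neonatal library and 9.72 in the adult library. Kif20a (MKLP2), the motor that carries the passenger complex to the midzone, was at 10.18 in iPS cells, 9.89 in the neonatal and 9.36 in the adult library. The median neonatal minus iPS difference of the 6 cytokinesis genes was 0.02, against -0.52 over all 49 and -0.04 over all 22180 genes. Their median adult minus iPS difference was -0.86, against -1.39 over the 49.

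Of the genes that shape chromosomes, Top2a (topoisomerase II alpha, which untangles sister DNA) had levels of 10.59 in iPS cells, 8.44 with DMSO, 8.73 with NRG1, 8.62 with both agents, 9.88 in the neonatal library and 8.91 in the adult library. Mki67 (Ki-67), which coats mitotic chromosomes and is widely used to mark cycling cells, stood at 10.46 in iPS cells, 8.40 with DMSO, 8.44 with NRG1, 8.76 with both agents, 10.29 in the neonatal library and 9.66 in the adult library. For Mki67 the neonatal library was close to iPS cells and the adult library lay between them and the cultures. Ncapd2, a condensin subunit, had levels of 9.41 in iPS cells, 7.01 with DMSO, 7.30 with NRG1, 7.39 with both agents, 8.92 in the neonatal library and 7.31 in the adult library, so that its adult level was in the range of the cultures. The condensin core subunits Smc2 and Smc4 differed less, with adult levels of 8.22 and 9.33 against 9.24 and 9.91 in iPS cells.

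At day 7 all 49 genes were lower in all 3 cultures than in iPS cells, as were 37.7% of all genes. With DMSO 48 of the 49 genes were at least 2-fold lower, where 8.62% of all genes were, and 0 were at least 2-fold higher (8.5% of all genes). The median difference was -2.09 (quartiles -2.40 and -1.64), a 4.24-fold lower level, while the median of all genes was 0.00 and the probe set SD was 0.58. With NRG1, 47 were at least 2-fold lower (9.51% of all genes) and 0 higher (7.41%), with a median of -1.78. With both agents 48 were lower (8.62%) and 0 higher (8.39%), with a median of -1.75. All 3 comparisons share the iPS library. Pluripotency marker medians were 5.15 to 5.30 in the cultures against 9.76 in iPS cells, and endoderm and epithelial marker medians 9.78 to 10.35 against 6.48. Cardiomyocyte marker medians were 6.36 to 7.00 in the cultures against 5.23 in iPS cells. In the neonatal and adult libraries they were 5.75 and 5.28. The part of this change of cell type in the differences of the division genes was not tested. Among the 49 genes the difference with DMSO ran from -3.27 for Kif18a, a 9.68-fold lower level, to -0.995 for Bub3, which was just under 2-fold.

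After Kif18a the most negative differences with DMSO were those of Bub1b (-2.99), Ttk (-2.89) and Bub1 (-2.89), all genes of the checkpoint. The smallest, besides Bub3, were those of Foxm1 (-1.23), Smc4 (-1.36) and Pttg1 (-1.37). With NRG1 the most negative were Kif18a (-2.81), Bub1b (-2.79), Ccnb2 (-2.77) and Melk (-2.75). The smallest with NRG1 were Spc25 (-0.65), Anln (-0.82), Pttg1 (-1.02) and Cdk1 (-1.06). With both agents Kif18a (-2.97), Bub1b (-2.69), Bub1 (-2.55) and Nusap1 (-2.37) were the most negative. Bub3 (-0.98), Smc4 (-1.05), Anln (-1.10) and Ndc80 (-1.14) were the smallest. By role the DMSO medians ran from -2.89 for the checkpoint to -1.91 for the kinetochore, with -2.17 for entry kinases and cyclins and for spindle motors, -2.12 for anaphase genes, -2.06 for chromosome structure and -1.92 for the passenger complex, cytokinesis lying between these last values. Each role thus had a median of about the same size apart from the checkpoint, whose 5 genes ranged from Bub3 to Bub1b. The checkpoint median was -1.82 with NRG1 and -1.93 with both agents.

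Because these genes were lower together, their promoters were read for the letters through which cell cycle genes are known to be controlled. The cell cycle genes homology region (TTTGAA or TTCGAA) is the contact of the MuvB core of DREAM, and CCAAT is the box bound by NF-Y. The 250 bases before the annotated start are shown for the 3 genes with the most negative DMSO minus iPS difference and for Bub3, the gene nearest to 0, from RefSeq on GRCm38.p6. They lie at chr2:109280488-109280737 on the plus strand, chr2:118597961-118598210 on the plus strand, chr9:83834439-83834688 on the plus strand and chr7:131560120-131560369 on the plus strand, and for Bub3 the window shown is that of the first of its 2 annotated starts. Capitals mark a match to either motif on either strand, and each sequence is written 5′ to 3′ along the gene.
Kif18a: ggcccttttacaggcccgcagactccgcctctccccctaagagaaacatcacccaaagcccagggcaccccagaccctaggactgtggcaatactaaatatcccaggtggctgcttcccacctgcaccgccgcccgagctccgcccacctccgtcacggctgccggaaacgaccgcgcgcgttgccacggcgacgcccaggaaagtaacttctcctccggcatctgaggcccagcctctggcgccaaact
Bub1b: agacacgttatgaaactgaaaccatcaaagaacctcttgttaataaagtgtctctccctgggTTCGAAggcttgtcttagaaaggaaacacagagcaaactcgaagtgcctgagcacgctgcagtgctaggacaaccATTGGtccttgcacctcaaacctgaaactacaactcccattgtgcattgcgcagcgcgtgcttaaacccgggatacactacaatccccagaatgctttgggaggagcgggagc
Ttk: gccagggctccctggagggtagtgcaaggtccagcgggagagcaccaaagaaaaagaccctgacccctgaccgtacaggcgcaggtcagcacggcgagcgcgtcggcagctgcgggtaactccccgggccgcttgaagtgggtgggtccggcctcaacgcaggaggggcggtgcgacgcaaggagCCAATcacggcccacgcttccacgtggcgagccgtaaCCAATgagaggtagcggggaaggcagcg
Bub3: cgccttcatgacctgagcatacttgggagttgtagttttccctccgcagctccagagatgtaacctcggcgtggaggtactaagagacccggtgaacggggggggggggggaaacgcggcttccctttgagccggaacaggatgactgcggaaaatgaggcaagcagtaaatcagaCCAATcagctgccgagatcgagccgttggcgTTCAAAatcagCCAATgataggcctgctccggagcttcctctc
The promoter of Kif18a held neither motif, although its level differed most. That of Bub1b held 1 of each, that of Ttk 2 CCAAT boxes, and that of Bub3 a CCAAT box on each side of 1 homology region. Outside the stretch shown, Bub1b held another homology region 40 bases after the start, and Ttk held its only homology region 7 bases after it.

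A further 3 promoters, chosen after their motifs were seen, show the arrangements with most matches or with both motifs close to the start. They lie at chr11:99024190-99024439 on the minus strand, chr2:164769679-164769928 on the plus strand and chr4:118437344-118437593 on the minus strand, with capitals as above.
Top2a: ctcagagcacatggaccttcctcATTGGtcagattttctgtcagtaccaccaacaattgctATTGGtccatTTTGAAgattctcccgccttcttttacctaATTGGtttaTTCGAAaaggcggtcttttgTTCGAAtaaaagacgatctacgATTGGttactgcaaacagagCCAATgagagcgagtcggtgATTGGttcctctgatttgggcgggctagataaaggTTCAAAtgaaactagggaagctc
Ube2c: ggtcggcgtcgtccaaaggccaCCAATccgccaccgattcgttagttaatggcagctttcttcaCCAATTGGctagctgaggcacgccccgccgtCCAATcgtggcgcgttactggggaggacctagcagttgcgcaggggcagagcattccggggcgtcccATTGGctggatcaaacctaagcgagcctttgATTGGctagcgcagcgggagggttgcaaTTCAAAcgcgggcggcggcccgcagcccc
Cdc20: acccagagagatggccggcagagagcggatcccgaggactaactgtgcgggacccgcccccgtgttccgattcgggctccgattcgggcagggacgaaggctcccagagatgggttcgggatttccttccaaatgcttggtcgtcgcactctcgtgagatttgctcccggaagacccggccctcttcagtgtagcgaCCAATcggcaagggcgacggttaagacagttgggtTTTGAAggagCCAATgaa
Top2a held 6 CCAAT boxes and 4 homology regions in these bases, Ube2c 6 (a pair of them overlapping on opposite strands) and 1, and Cdc20 2 and 1. In Cdc20 the homology region lay at 18 bases before the start, between CCAAT boxes at 53 and 8 bases before it. The DMSO minus iPS differences of these genes were -2.16, -2.08 and -2.38.

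A promoter window of 250 bases before to 50 after the start was held for 41 of the 49 genes, as 44 windows. The homology region was found in 33 of the 41 (80.5%), against 21.7% of the 27025 genes of the same table. CCAAT was found in 28 (68.3%), against 41.1% of all genes, and 27 (65.9%) held both motifs, against 9.65%. Neither was found in 7 (17.1%), namely Birc5, Kif18a, Mad2l1, Melk, Nuf2, Nusap1 and Pttg1, against 46.9% of all genes. The letters of an E2F site (TTTCCCGC, TTTCGCGC, TTTGCCGC or TTTGGCGC) were found in 3, namely Cdk1, Kif18a and Ncapd2 (7.32%), against 2.6% of all genes. A homology region and a CCAAT box shared bases in Cdca8. Neighbouring CCAAT matches could also share bases.

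The matches were unevenly placed. In 23 of the 44 windows (52.3%) a homology region lay within the 50 bases after the start, where 2.46% of all windows had it, and in 20.5% it lay in the 50 bases before the start (2.97% of all windows). CCAAT boxes lay upstream of that, in the 50 bases before the start in 47.7% of the windows (9.03% of all) and between 100 and 50 bases before it in 40.9% (12.5% of all). After the start CCAAT was found in 4.55%, against 5.22% of all windows. Genes with and without a motif had like differences. The median DMSO minus iPS difference was -2.12 over the 33 genes with a homology region and -2.17 over the 8 without, and for CCAAT it was -2.12 over 28 and -2.16 over 13. These are matches of letters, and no binding was measured.

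**Figure D2:**
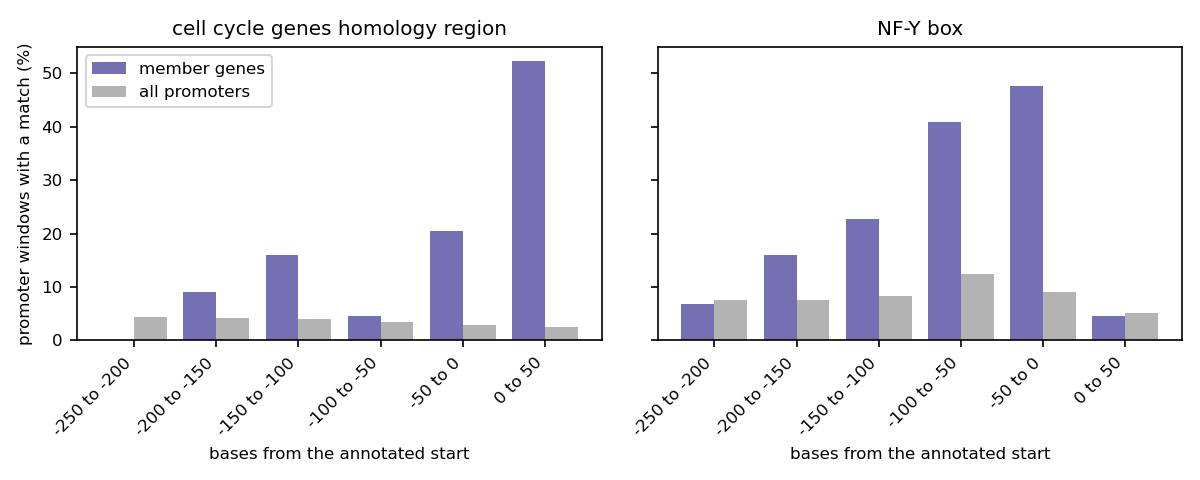
Share of promoter windows (vertical axis, %) with a match to the cell cycle genes homology region (left) or the NF-Y box CCAAT (right) in each stretch of 50 bases around the annotated start. Bars are the 44 windows of the mitosis and cytokinesis genes and all 32851 windows of the table. The homology region is found in 52.3% of the member windows just after the start, and CCAAT in 47.7% just before it.

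Of the 5 libraries set against iPS cells, the neonatal library had the smallest median difference. Of the 49 genes 6 were at least 2-fold lower in it (7.36% of all genes) and 0 were at least 2-fold higher (8.32%). Among genes with a mean level at or above the median, as all 49 had, 9.59% were lower and 12.7% higher. The median difference was -0.52 (quartiles -0.80 and -0.11), and the probe set SD of this comparison was 0.60. Above 0 were 9 genes (46.4% of all genes), and 40 were below. The 6 genes at least 2-fold lower were Pttg1 (-1.68), Bub1 (-1.58), Espl1 (-1.50), Cenpf (-1.35), Bub1b (-1.12) and Spc24 (-1.05). Separase (Espl1) and its inhibitor securin (Pttg1) were among them, but a count this near the background share is no result about these genes. At the other end stood Anln (0.71), Nuf2 (0.37), Cdk1 (0.18) and Foxm1 (0.15). Roles differed in their medians, from -0.84 for the anaphase genes to 0.02 for cytokinesis, with -0.61 for the checkpoint, -0.30 for entry kinases and cyclins and -0.17 for chromosome structure. When each library was shifted by the median difference of 12 housekeeping genes, the member median became -0.21 and 17 genes lay above 0, Anln at least 2-fold. That shift moved the median of all genes to 0.26.

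In the adult library 35 of the 49 genes were at least 2-fold lower than in iPS cells (9.27% of all genes) and 0 were at least 2-fold higher (8.55%). The median difference was -1.39 (quartiles -1.66 and -0.95), a 2.63-fold lower level, against a median of -0.02 over all genes and a probe set SD of 0.64. The most negative were Bub1 (-2.49, 5.6-fold), Kif18a (-2.28), Haspin (-2.26) and Ncapd2 (-2.10). Those nearest to 0 were Anln (0.08), Nuf2 (-0.43), Bub3 (-0.47) and Foxm1 (-0.57). The anaphase genes had the most negative role median, -1.65, and cytokinesis the least negative, -0.86. Spindle motors had -1.51, the checkpoint and the passenger complex -1.45 each, the kinetochore -1.30, entry kinases and cyclins -1.03 and chromosome structure -1.02.

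Set directly against each other, the adult library was lower than the neonatal library for 48 of the 49 genes, beside 11065 of all 22180 genes. Of the 49, 11 were at least 2-fold lower (1.91% of all genes) and 0 were at least 2-fold higher (1.73%). The median difference was -0.86 (quartiles -0.98 and -0.60), a 1.82-fold lower level, against 0.00 over all genes, and the probe set SD was 0.38. The largest differences were those of Ncapd2 (-1.60, 3.04-fold), Birc5 (-1.50), Haspin (-1.47) and Kif18a (-1.44), so that a condensin subunit, survivin, the histone kinase haspin and a spindle motor led the list. Melk (-1.32), Aurkb (-1.13), Aurka (-1.08), Kif11 (-1.08), Plk1 (-1.05), Kif4 (-1.04) and Kif23 (-1.02) were the others past 2-fold. Pttg1 (0.04), Cenpf (-0.31), Nusap1 (-0.47) and Smc4 (-0.48) differed least. By role the medians ran from -1.13 for the passenger complex to -0.59 for the checkpoint, with -0.98 for entry kinases and cyclins and -0.71 for the kinetochore. With the shift by the median difference of 12 housekeeping genes, 28 genes were at least 2-fold lower and the median was -1.10.

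Markers of several cell types differed between the heart libraries, and the part of such cells in these differences was not tested. Adult minus neonatal, the 12 fibroblast markers had a median difference of 0.36 with 9 above 0, and their levels spanned 7.66 to 12.99 in the neonatal and 7.36 to 13.05 in the adult library. All 10 macrophage markers were above 0 (median 1.09), 5 of them at least 2-fold. Of the 15 cardiomyocyte markers 14 were below 0 (median -0.80), 6 at least 2-fold, led by Pln (-2.54), Actc1 (-2.31) and Tnnt2 (-1.54). Smooth muscle (5 genes) and endothelial markers (7 genes) had medians of 0.00 and 0.19.

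**Figure D3:**
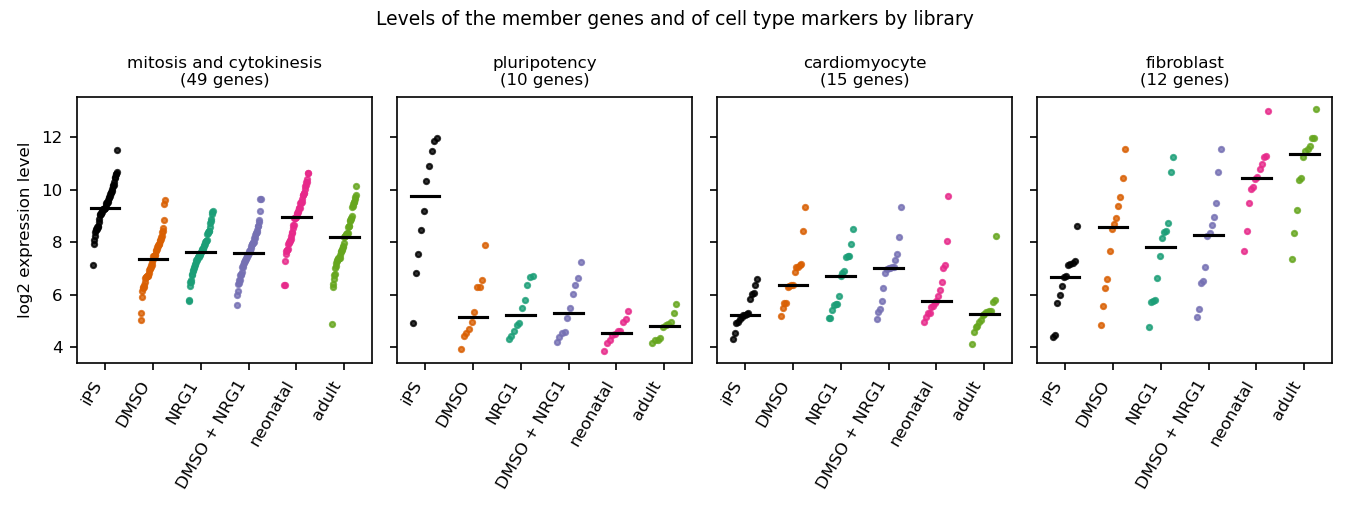
Levels (vertical axis, log2) in the 6 libraries of the 49 mitosis and cytokinesis genes and of the pluripotency, cardiomyocyte and fibroblast markers, with 1 point per gene and a bar at the median. The division genes have medians of 9.29 in iPS cells, 8.97 in the neonatal and 7.36 in the DMSO library, while the fibroblast medians are highest in the neonatal and adult libraries.

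The culture with both agents had slightly higher levels than DMSO alone for nearly all of the 49 genes. Relative to DMSO alone, 48 of the 49 genes were above 0 in the DMSO_NRG1 culture, where 48.4% of all genes were, and the exception was Foxm1 (-0.14). The median difference was 0.30 (quartiles 0.19 and 0.37), a 1.23-fold higher level, against -0.01 over all genes (quartiles -0.15 and 0.13). The differences were small, since 0 of the 49 were at least 2-fold higher (0.0992% of all genes) or lower (0.126%), and the probe set SD was 0.20. At 1.5-fold or more, 3 genes were higher (1.24% of all genes), namely Haspin, Ttk and Nuf2. Past 2 probe set SDs, 7 were higher and 0 lower, against 4.27% and 5.55% of all genes.

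Haspin stood at 5.02 with DMSO and 5.99 with both agents, a difference of 0.97 or 1.96-fold. Ttk stood at 6.37 and 7.33, a difference of 0.96 or 1.95-fold. Nuf2 went from 6.84 to 7.52, a difference of 0.68. The products of these genes act at centromeres or kinetochores. Others that act there lay below the median of the 49, such as Cenpa (0.25), Ndc80 (0.26) and Spc24 (0.06). The kinetochore and checkpoint roles had medians of 0.35 and 0.30, against 0.30 over the 49. After Nuf2 stood the motor Kif11 with 0.50. Kif20b (0.49), Birc5 (0.45) and Knl1 (0.43) came next, KNL1 being the kinetochore platform on which TTK builds the checkpoint signal. At the other end Mad2l1 (0.00), Bub3 (0.02) and Cdc20 (0.05) were at nearly the same level in both cultures. The proliferation marker Mki67 differed by 0.36, Cdk1 by 0.17 and Top2a by 0.19. Role medians lay between 0.16 for the anaphase genes and 0.36 for the spindle motors.

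NRG1 alone gave a like median relative to DMSO alone, with more spread. Of the 49 genes 43 were above 0 (48.1% of all genes), the median was 0.29 (quartiles 0.17 and 0.46), and the probe set SD was 0.30. Ttk (1.07, 2.1-fold) was the only gene at least 2-fold higher (0.316% of all genes), and 0 were at least 2-fold lower (1.21%). Spc25 (0.88), Haspin (0.76) and Kif20b (0.66) followed. The 6 genes below 0 were Bub3 (-0.47), Ect2 (-0.27), Foxm1 (-0.21), Melk (-0.17), Ccnb2 (-0.15) and Mad2l1 (-0.05). The passenger complex had the highest role median, 0.62, and entry kinases and cyclins the lowest, 0.16. This comparison shares the DMSO library with the preceding one, so any deviation of that single library enters both.

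The DMSO_NRG1 and NRG1 cultures could be compared without the DMSO library. Their median difference over the 49 genes was 0.00 (quartiles -0.17 and 0.12), with 25 genes above 0 (51.2% of all genes), and the probe set SD was 0.30. Of genes with a mean level at or above the 75th percentile, as 46 of the 49 had, 60.9% were above 0, with a median of 0.07. At the 2-fold threshold 0 were higher (0.73% of all genes) and 0 lower (0.293%). The most positive were Melk (0.50), Bub3 (0.48), Ccnb2 (0.47) and Ect2 (0.45), and the most negative Spc25 (-0.55), Cdca8 (-0.52), Espl1 (-0.36) and Nusap1 (-0.35). Under the planned housekeeping shift this median was -0.19 with 10 genes above 0, and that shift moved the median of all genes to -0.18. Relative to all genes the members were at -0.01 in either case.

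**Figure D4:**
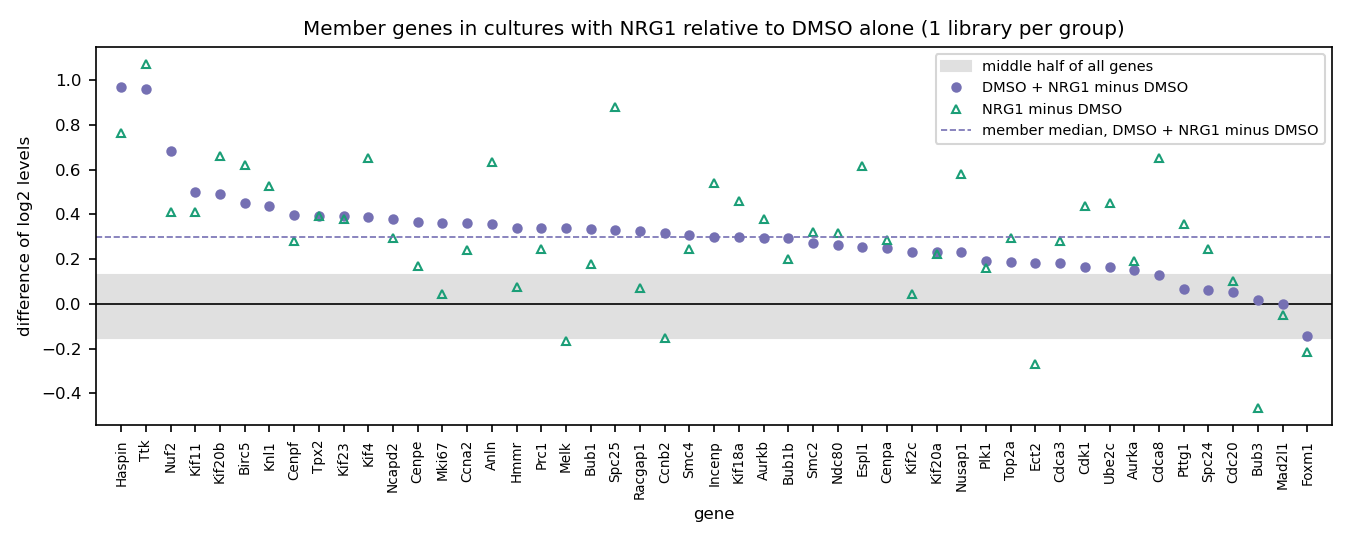
Difference (vertical axis, log2 units) of each of the 49 genes in the DMSO + NRG1 culture (filled circles) and in the NRG1 culture (open triangles) from the DMSO culture, ordered by the former. The grey band spans the quartiles of all 22180 genes for DMSO + NRG1 minus DMSO. All circles but Foxm1 are at or above 0, with a median of 0.30, and only the triangle of Ttk exceeds 1.

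Cell type markers were compared between the same cultures gene by gene. DMSO_NRG1 minus DMSO, the median difference was 0.00 over the 15 cardiomyocyte markers (7 above 0), -0.09 over the 12 fibroblast markers (4 above 0), -0.10 over the 10 endoderm and epithelial markers (3 above 0) and -0.01 over the 10 pluripotency markers (5 above 0). NRG1 minus DMSO, these medians were -0.20 (6 above 0), -0.51 (2 above 0), 0.41 (8 above 0) and -0.02 (5 above 0). The part of the cell mixture in the differences of the division genes was not tested. The 10 measured cell cycle inhibitors had medians of -0.03 for DMSO_NRG1 minus DMSO and -0.12 for NRG1 minus DMSO, with 4 above 0 in each. NRG1 minus DMSO they ran from -0.90 for Cdkn1a (p21) to 0.90 for Cdkn2c (p18).

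Other genes of cell division had list medians between -1.71 and 0.04 for DMSO minus iPS. They were 139 measured genes from 152 symbols on 9 lists, where septins stood under both older and newer symbols. At least 2-fold lower with DMSO than in iPS cells were 65 of the 139, and 2 were higher, beside 8.62% and 8.5% of all genes. Other mitotic kinesins and spindle proteins came nearest to the 49, with 22 of 25 lower and a median of -1.71, led by Kif15 (-3.07), Kif22 (-2.68) and Kntc1 (-2.63). The list named inner kinetochore also held outer kinetochore genes such as Dsn1 and Zwint. On that list 13 of 20 were lower (median -1.41). Cenpk was at -2.52, but its DMSO level of 3.95 lay under the median of all probe sets. Zwint, which docks checkpoint proteins at kinetochores, was higher by 1.16. Mitotic entry regulators had 8 of 12 lower (median -1.37), among them Gtse1 (-2.24) and the phosphatase Cdc25a (-2.01). The other condensin subunits had 2 of 4 lower (median -1.20), with Ncaph at -2.15, and centrosome duplication had 6 of 11 (median -1.01), with the kinase Nek2 at -2.20.

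The remaining lists had medians nearer to 0, and the reason was not tested. Cohesin, which holds sister chromatids together and shapes interphase chromosomes, had 4 of 13 lower with DMSO (median -0.68), led by the acetyltransferase Esco2 (-3.23) and by Cdca5, sororin (-2.04). The anaphase-promoting complex had 2 of 17 lower (median -0.41), the largest being its inhibitor Fbxo5, EMI1 (-2.65). Contractile ring and abscission genes had 1 of 19 lower, the formin Diaph3 (-1.12), 1 higher, the non-muscle myosin Myh9 (1.31), and a median of 0.04. Of the E2F, MYB and DREAM genes, 8 of 19 were lower (median -0.76), led by Mybl2 (-3.67), the MYB partner of MuvB. Mybl2 stood at 10.30 in iPS cells, 6.63 with DMSO, 6.83 in the neonatal and 5.94 in the adult library. Its neonatal level, -3.47 from iPS cells, was near that of the DMSO culture, whereas the 49 division genes had a neonatal median of -0.52.

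**Figure D5:**
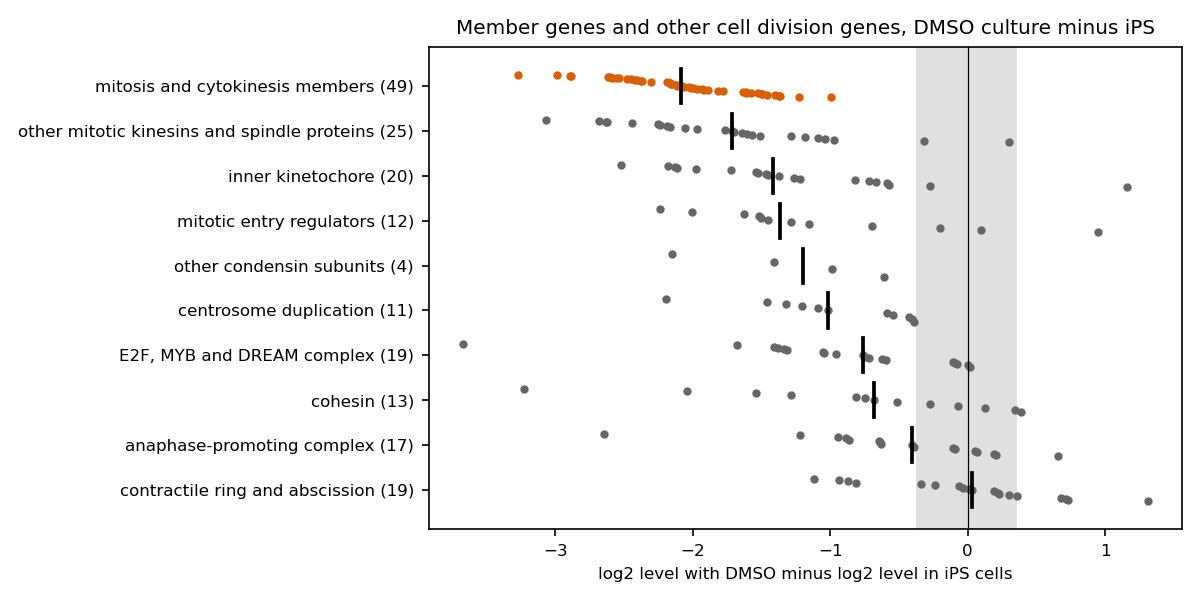
Difference of DMSO culture minus iPS cells (horizontal axis, log2 units) for the 49 mitosis and cytokinesis genes and for 9 lists of other cell division genes, with 1 point per gene, a bar at the list median and the number of measured genes in parentheses. The grey band spans the quartiles of all genes. Medians run from -2.09 for the 49 genes to 0.04 for contractile ring and abscission. The list labelled inner kinetochore also holds outer kinetochore genes.

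The same lists were counted in the other comparisons. In the neonatal library 15 of the 139 were at least 2-fold lower than in iPS cells and 4 higher, beside 7.36% and 8.32% of all genes, with a median of -0.20. In the adult library 51 were lower and 2 higher, beside 9.27% and 8.55%, with a median of -0.67. Adult against neonatal, 29 were lower and 0 higher (median -0.54), beside 1.91% and 1.73% of all genes, 12 of them among the 25 other kinesins and spindle proteins. DMSO_NRG1 against DMSO, 97 of the 139 were above 0, as were 48.4% of all genes, with a median of 0.11, and 0 were 2-fold apart. The kinesins and spindle proteins had 23 of 25 above 0 (median 0.29), cohesin 12 of 13 (median 0.15) and the other condensin subunits 4 of 4 (median 0.24), while the E2F, MYB and DREAM genes had 9 of 19 (median 0.00).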

How the data were processed

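The authors deposited log2 expression values of 41345 probe sets in 6 libraries, made with RMA (its version is not given in the sources used here), per the submitters' processing notes. RMA equalises the distributions of the arrays and so hides any change common to most genes. The platform annotation named 1 symbol for 23521 probe sets. Probe sets of 1 symbol were averaged, giving 22180 genes, and members were matched by symbol. Comparisons are differences of log2 values, counted at 2-fold with no filter on low values. The technical SD is that of the difference between 2 probe sets of a gene, divided by the square root of 2, over genes with exactly 2. The number of arrays limits the precision. Counting was tested on simulated data. Promoters (RefSeq, GRCm38.p6) were searched on both strands. In each comparison the 4 most negative and 4 most positive members are named, with up to 3 genes of each other list; further ones were chosen after their values were seen. The members and lists were chosen with earlier results of these data known. Alternatives were the brightest probe set, cyclic loess (limma 3.58.1 in R 4.3.3), housekeeping shifts, synonyms, filters at the median and 75th percentile, and thresholds of 1.5-fold and 4-fold. The shift by median housekeeping difference was chosen after seeing the data.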

Additional observations from a re-analysis of the deposited data

How the results depend on the processing

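Under each alternative run, the median difference of the 49 genes kept its direction in the 8 comparisons with a median apart from 0.00. It moved by less than 1.5-fold, or 0.585 in log2 units. That limit is larger than the medians of DMSO_NRG1 minus DMSO (0.30), NRG1 minus DMSO (0.29) and neonatal minus iPS (-0.52). For these, only the direction was checked. Rescaling the same arrays cannot show whether that direction would recur in other libraries. The neonatal median ran from -0.52 to -0.21. The brightest probe set and the filter at the median left every member as it was, so neither could move a median. Counts at other thresholds necessarily moved. At 4-fold, 5 genes were apart for adult minus iPS (5.13% of all genes), 0 for neonatal (4.74%), 30 for DMSO (4.41%), 16 for NRG1 (4.17%) and 14 for DMSO_NRG1 minus iPS (4.29%), 0 for NRG1 minus DMSO (0.0496%) and 0 for adult minus neonatal (0.415%). At 1.5-fold, 20 were apart for neonatal minus iPS (31.7% of all genes), 3 for DMSO_NRG1 minus DMSO (2.84%), 9 for NRG1 minus DMSO (8.54%) and 39 for adult minus neonatal (14.0%). With equal housekeeping medians, 2 were 2-fold apart for DMSO_NRG1 minus DMSO (0.234%), 2 for NRG1 minus DMSO (1.66%) and 18 for adult minus neonatal (3.9%). With the shift by the median housekeeping difference, chosen after seeing the data, 2 were apart for NRG1 minus DMSO (1.41%) and 28 for adult minus neonatal (5.0%). These shifts moved libraries by up to 0.30 against iPS cells, and relative to the median of all genes the member medians were unchanged by construction. DMSO_NRG1 minus DMSO had 44 to 48 of the 49 genes above 0 over the scalings, and its median ran from 0.24 to 0.34. The median of all genes ran from -0.07 to 0.03 over the same scalings. Before any of them, 48.4% of all genes were above 0. In promoters read from 100 bases before the start to the start, 9 genes (22.0%) held the homology region in place of 33. Of all genes 7.18% held it there. This stretch leaves out the 50 bases after the start, where 23 of the 44 windows held it. Under cyclic loess all 441 values of single genes moved by less than 1.5-fold. The brightest probe set could not move them, since each of the 49 genes had 1 probe set. Equal housekeeping medians shift every gene of a comparison by the same amount, so they check no gene singly. No paired analysis was possible because each group has 1 library. Without detection values, how far a probe set stood above background is unknown.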
